A study of Homo sapiens with 32 samples.

Results

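The MYC, MAX and MXD network is a group of DNA-binding transcription factors, and its expression was followed here in drug-treated breast cancer cells. Its 10 members were taken by name from the 48804 Ensembl genes counted in the study. They are the MYC genes (MYC, MYCN and MYCL), their shared partner MAX, the antagonists MXD1, MXD3, MXD4, MXI1 and MNT, and MLX, the partner of a parallel arm. All 10 passed the filter on low counts in every comparison, with from 29 (MYCN) to 6321 (MYC) counts in a library.

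A MYC protein binds DNA only as a dimer with MAX, on the E-box motif, and mainly activates genes of growth, ribosome production and metabolism. The MXD proteins and MNT compete for MAX and bind the same motif, but they recruit SIN3 and histone deacetylases, so that their dimers repress. MLX takes the place of MAX in dimers with MNT, MXD1 and MXD4 and with the glucose sensors MLXIP and MLXIPL. In breast cancer, MYC activity is a known feature of triple-negative tumours, in which MYC is often amplified.

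Cells of the triple-negative breast cancer line MDA-MB-468 were treated with PBS (control), salinomycin (Sal), dasatinib (Das) or the mixture of both (S + D). The doses, alone and in the mixture, were 0.5 μM Sal, a polyether ionophore, and 15 μM Das, an inhibitor of SRC and ABL kinases. Treatment lasted 24 or 72 h, and the 8 conditions had 4 biological replicates each, giving 32 libraries with 25692561 to 42769687 counts each. The findings thus rest on 1 cell line in culture, and the fluctuation of a transcript does not show that of its protein. In this bulk RNA, fewer cells that express a gene and less RNA per cell cannot be told apart.

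The libraries carried the markers of this line. EPCAM, an epithelial adhesion molecule, ranged from 206 to 393 CPM (read counts of the gene relative to the library total, which edgeR adjusts by TMM factors), and EGFR, which this line overexpresses, from 2791 to 5921 CPM. The progesterone receptor gene PGR stayed at or below 0.0894 CPM, the leukocyte marker PTPRC at or below 0.132 CPM, and LYZ and COL3A1 at or below 0.07 and 0.0754 CPM. ESR1 was low, at 3.64 to 12.0 CPM, whereas the collagen gene COL1A1 was present in all libraries at 18.2 to 120 CPM, and ERBB2 at 56.8 to 192 CPM. In each condition, 3 libraries are numbered from 1 to 3 and 1 carries no number. Relative to their group means, the unnumbered libraries of a time point shifted alike, and the correlation of these shifts over genes was 0.72 to 0.78 at 24 h and 0.66 to 0.74 at 72 h. For this reason, values from the numbered libraries alone are given beside the results whose call they change, and beside some others. Their p-values reflect the spread within replicates 1 to 3 alone. A smaller p-value there is not stronger evidence, because the library that shifted was left out.

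The promoters of the members were read first, since the E-box is the site at which the network acts. The 250 bases before the transcription start were taken from RefSeq (GRCh38.p14) for 9 of the members, all except MYC, and searched for CACGTG, which reads the same on both strands. The motif was found for 3 of the 9 members, MXD4, MNT and MLX, and for 7.73% of the 27305 genes in the RefSeq table. These 3 windows are shown because they place a possible binding site of the network upstream of its own members, with the E-box in capitals. A match of letters describes the sequence and does not show that a factor binds there.
MXD4, chr4:2262110-2262359, minus strand, E-box 238 to 233 bases before the start: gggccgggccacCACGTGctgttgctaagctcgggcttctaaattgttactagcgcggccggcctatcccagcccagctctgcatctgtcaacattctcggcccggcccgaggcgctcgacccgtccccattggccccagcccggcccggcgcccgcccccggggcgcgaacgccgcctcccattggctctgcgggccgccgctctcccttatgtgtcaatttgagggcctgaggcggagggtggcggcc
MNT, chr17:2401061-2401310, minus strand, E-box 193 to 188 bases before the start: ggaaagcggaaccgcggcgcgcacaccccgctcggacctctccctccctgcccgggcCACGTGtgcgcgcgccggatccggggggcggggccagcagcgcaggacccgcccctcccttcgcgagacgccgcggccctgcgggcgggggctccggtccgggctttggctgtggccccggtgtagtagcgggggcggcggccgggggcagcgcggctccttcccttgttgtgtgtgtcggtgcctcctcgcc
MLX, chr17:42566850-42567099, plus strand, E-box 50 to 45 bases before the start: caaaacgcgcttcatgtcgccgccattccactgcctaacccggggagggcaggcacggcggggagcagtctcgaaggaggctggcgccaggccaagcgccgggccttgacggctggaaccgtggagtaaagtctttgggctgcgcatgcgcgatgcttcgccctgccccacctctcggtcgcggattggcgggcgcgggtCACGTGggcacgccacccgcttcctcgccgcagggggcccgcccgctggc

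In untreated cells, MYC was by far the most abundant of the MYC genes. Divided by exon length, the level of MYC in the 24 h control was 21.8 ± 1.7 CPM per kb (SD, n = 4), against 1.67 ± 0.29 for MYCN and 0.31 ± 0.02 for MYCL. MYC accounted for 91.6% of the summed level of these 3 genes. Among the antagonists, MXD3 was the highest at 10.1 ± 0.2 CPM per kb, followed by MXD1 (7.59 ± 0.14), MXI1 (5.44 ± 0.80), MNT (4.52 ± 0.26) and MXD4 (2.89 ± 0.15). Before division by length, MXD3 and MXD1 stood level at 48.1 ± 0.8 and 48.2 ± 0.9 CPM, so their order rests on the exon lengths. MXD3 also shares 43.7% of its exon bases with neighbouring genes, which makes its level uncertain. The partner genes MAX and MLX stood at 7.20 ± 1.21 and 13.9 ± 1.0 CPM per kb.

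Of the 10 members, 2 were called between the 72 h and 24 h controls, and both were higher at 72 h (2.76% of all 17227 genes were called in either direction). A gene is called here at an adjusted p under 0.01 in edgeR's quasi-likelihood test. MYCN, the member best known from neuroblastoma, rose from 4.59 ± 0.79 to 10.4 ± 1.1 CPM (log2 fold change 1.19, SE 0.20, adjusted p = 0.000418), and MXI1 from 32.1 ± 4.7 to 59.1 ± 8.8 CPM (0.88, SE 0.19, adjusted p = 0.00424). The groups did not overlap for either gene. The call for MXI1 held in 2 of the 8 fits that leave out 1 library, with adjusted p-values up to 0.0211, and in the numbered libraries its log2 fold change was 1.06.

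MYC was downregulated by Sal and S + D at 24 h and by all treatments at 72 h. The 24 h controls held 128, 125 and 132 CPM in replicates 1, 2 and 3 and 149 CPM in the unnumbered library. With Sal for 24 h, the corresponding values were 83.6, 74.1, 81.7 and 57.4 CPM, and with S + D they were 83.0, 79.7, 83.2 and 63.9 CPM. Every library of these treatments lay below every control library, and the fall was 1.81-fold with Sal (log2 fold change -0.85, SE 0.12, adjusted p = 0.000279) and 1.68-fold with S + D (-0.75, SE 0.12, adjusted p = 0.000129). In the numbered libraries alone the falls were smaller, -0.67 with Sal and -0.63 with S + D, and both were still called. In contrast, Das for 24 h gave 135, 130, 141 and 117 CPM, which overlapped the controls. The log2 fold change with Das was -0.01, with a 95% interval from -0.27 to 0.25 and an adjusted p of 0.978.

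The 72 h controls held 152, 158, 172 and 114 CPM of MYC. Sal left 22.5, 20.7, 19.7 and 20.2 CPM, a 7.26-fold fall (-2.86, SE 0.19, adjusted p = 5.71e-09). S + D left 30.8, 28.3, 30.6 and 27.4 CPM, a 5.14-fold fall (-2.36, SE 0.18, adjusted p = 1.76e-08). The 4 values of each treatment were close to each other and all far below the controls. With Das the libraries spread from 49.9 and 52.2 CPM in replicates 1 and 2 to 97.6 CPM in replicate 3 and 68.3 CPM in the unnumbered library. These also lay below all controls, and the fall was 2.23-fold (-1.16, SE 0.18, adjusted p = 0.000126). The order of the MYC levels at 72 h was thus Sal, S + D, Das and control. The neighbours Sal and S + D did not overlap, but their difference (0.50 on the log2 scale, SE 0.18, 95% interval 0.12 to 0.87) did not pass the threshold, with an adjusted p of 0.0962.

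The paralogs of MYC moved in opposite directions. MYCN (chr2:16080672-16087129, plus strand, GRCh37), low throughout, followed MYC. Its 72 h control libraries held 9.91, 11.3, 11.4 and 9.13 CPM, whereas Sal left 1.02, 1.10, 1.20 and 0.97 CPM. The libraries with S + D held 1.28, 0.94, 1.04 and 1.15 CPM. No treated library reached the controls, and the log2 fold changes were -3.30 with Sal (SE 0.21, adjusted p = 3.86e-09) and -3.26 with S + D (SE 0.21, adjusted p = 2.28e-09). Das gave from 2.30 to 4.19 CPM, a smaller fall (-1.69, SE 0.19, adjusted p = 7.11e-06). At 24 h MYCN fell with S + D (-1.44, SE 0.23, adjusted p = 0.000116), while Sal and Das gave -0.65 and -0.53 with adjusted p-values of 0.0641 and 0.106. In the numbered libraries alone both values passed the threshold, with adjusted p-values of 0.00341 and 0.000526.

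MYCL (chr1:40361100-40367928, minus strand, GRCh37), a paralog first found in lung cancer, rose at 72 h instead. The controls held 2.14, 1.98, 2.47 and 2.40 CPM, and Sal raised this to 13.1, 11.8, 12.4 and 9.47 CPM. With S + D the libraries held 16.3, 12.4, 12.6 and 13.2 CPM, and with Das 5.56, 4.97, 4.97 and 6.24 CPM. All treated libraries exceeded all controls. The log2 fold changes were 2.36 with Sal (SE 0.16, adjusted p = 6.23e-09), 2.58 with S + D (SE 0.16, adjusted p = 1.37e-09) and 1.27 with Das (SE 0.15, adjusted p = 1.58e-05). With MYC low and MYCL high, the share of MYCL in the summed CPM per kb of the MYC genes went from 1.6% in the 72 h control to 38.3% with Sal and 34.5% with S + D, against 8.8% with Das. MYCL was not called at 24 h in any treatment. Its largest value there, 6.03 CPM, was the unnumbered library of S + D, while replicates 1 to 3 of that group lay between 1.66 and 1.77 CPM and the controls between 1.40 and 1.69 CPM.

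**Figure D1:**
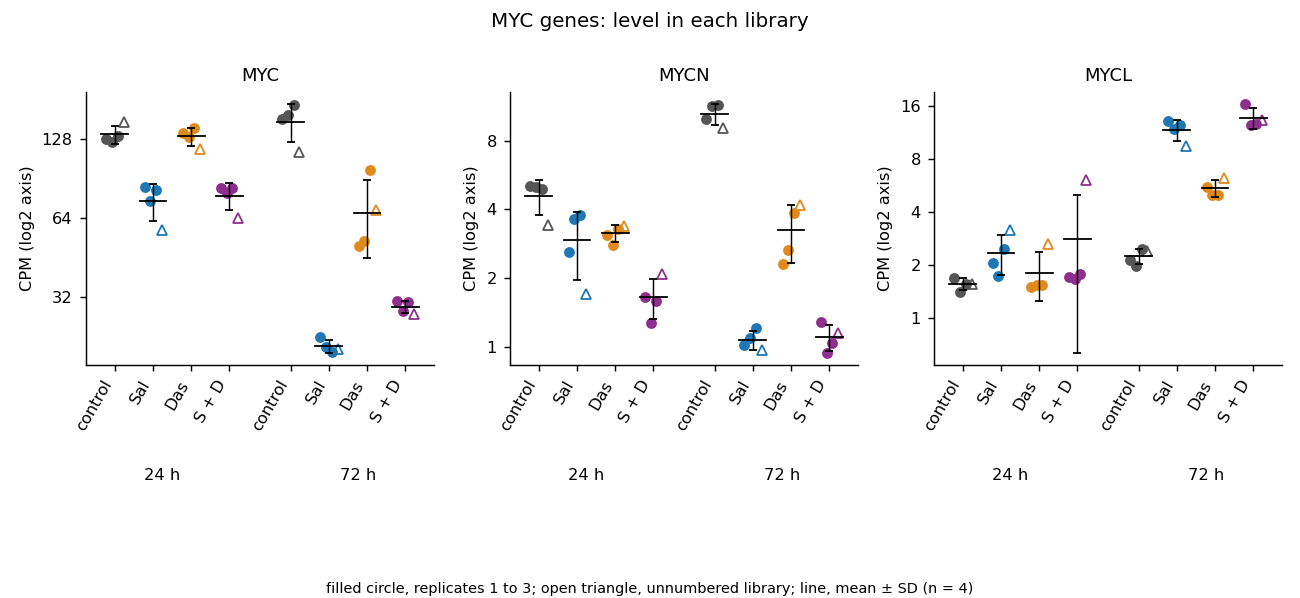
Level of each MYC gene in the 32 libraries, in CPM on a log2 axis, by treatment and time. Filled circles are replicates 1 to 3, open triangles the unnumbered libraries, and lines and bars the mean and SD of 4 libraries. MYC with Sal at 72 h sits between 19.7 and 22.5 CPM, below its 72 h controls of 114 to 172 CPM, while MYCL rises to between 9.47 and 13.1 CPM.

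MAX, the partner with which the MYC proteins bind DNA, was upregulated by Sal and S + D at both time points. At 24 h the controls held 50.4, 49.6, 46.2 and 34.0 CPM, the lowest value being the unnumbered library. Sal gave 75.1, 76.0, 82.0 and 82.4 CPM, and S + D gave 90.1, 90.0, 95.1 and 64.4 CPM. The groups did not overlap, and the log2 fold changes were 0.80 (SE 0.14, adjusted p = 0.00125) and 0.95 (SE 0.14, adjusted p = 4.47e-05). The mean rose at 72 h from 47.5 ± 7.9 CPM to 97.4 ± 15.6 with Sal (1.02, SE 0.21, adjusted p = 0.000364) and 94.1 ± 17.9 with S + D (0.97, SE 0.21, adjusted p = 0.000543). With Das at 72 h, replicates 1 and 2 held 102 and 98.8 CPM, and replicate 3 and the unnumbered library 56.6 and 56.0 CPM. All 4 lay above the controls, but with this spread the log2 fold change of 0.72 had an adjusted p of 0.0133. This value passed the threshold in 6 of the 8 alternative fits, among them the replicate block, a term for the replicate number (adjusted p = 0.000585), the numbered libraries alone (0.74, adjusted p = 0.00465) and DESeq2. With 1 library left out it passed in 2 of 8 fits, without replicate 3 of Das and without the unnumbered library of Das. At 24 h Das gave 0.35 (adjusted p = 0.0819), and MAX passed in the numbered libraries (0.33, adjusted p = 5.16e-05). The transcribed region of MAX (chr14:65472892-65569413, minus strand, GRCh37) shares 16.1% of its exon bases with genes on the other strand, among them FNTB, a farnesyltransferase subunit. FNTB fell at 72 h, by 1.33 on the log2 scale with Sal (adjusted p = 1.2e-05).

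The antagonists did not move as 1 block. MNT, MXD4 and MXD1 rose, MXD3 fell like MYC and MYCN, and MXI1 was called with S + D at 72 h alone among the 6 comparisons with a control. MNT, which is expressed in proliferating and resting cells alike, showed the largest rise of the 5. Its 72 h controls held 39.3, 41.9, 50.9 and 34.5 CPM, and Sal raised them to 181, 130, 132 and 107 CPM. S + D gave 106, 139, 139 and 100.5 CPM. The treated and control libraries did not overlap, and MNT rose 3.26-fold with Sal (1.71, SE 0.24, adjusted p = 8.19e-06) and 2.87-fold with S + D (1.52, SE 0.24, adjusted p = 2.5e-05). The rise was already present at 24 h, at 1.10 with Sal (SE 0.14, adjusted p = 0.000103) and 1.16 with S + D (SE 0.14, adjusted p = 6.92e-06). With Das the log2 fold changes of 0.48 at 24 h and 0.70 at 72 h had adjusted p-values of 0.0191 and 0.0294. Replicate 3 of Das at 72 h held 34.5 CPM, as low as the lowest control, and without it the adjusted p was 0.000677, while the 24 h value passed in the numbered libraries alone (0.57, adjusted p = 2.55e-05). MNT (chr17:2287367-2304398, minus strand, GRCh37) shares 12.2% of its exon bases with a gene on the other strand.

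MXD4 (chr4:2249159-2263836, minus strand, GRCh37) was the member called with Das at 24 h. Its controls at this time held 19.3, 20.3, 21.0 and 18.7 CPM, and Das gave 42.9, 41.7, 39.4 and 42.7 CPM. Sal gave 32.3, 25.8, 33.4 and 48.4 CPM, and S + D gave 30.9, 32.1, 31.5 and 38.5 CPM. All treated libraries lay above the controls. The log2 fold change was 1.09 with Das (SE 0.14, adjusted p = 3.53e-05), 0.80 with Sal (SE 0.14, adjusted p = 0.00113) and 0.78 with S + D (SE 0.14, adjusted p = 0.000258). The call with Sal was lost when only the Sal and control libraries were fitted. In the numbered libraries alone the values were 1.07 with Das, 0.61 with Sal and 0.66 with S + D. At 72 h all treatments again raised MXD4, by 0.94 with Sal (SE 0.16, adjusted p = 6.54e-05), 0.74 with Das (SE 0.16, adjusted p = 0.00205) and 0.72 with S + D (SE 0.16, adjusted p = 0.000748).

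MXD1 (chr2:70124820-70170077, plus strand, GRCh37), known for its induction when cells differentiate, rose with Sal and S + D at 72 h. The 72 h controls held 47.8, 48.1, 42.2 and 43.3 CPM. Sal raised this to 99.9, 111, 114 and 89.2 CPM, and S + D to 81.7, 101, 99.5 and 106 CPM. The groups were well apart, with log2 fold changes of 1.17 (SE 0.16, adjusted p = 6.22e-06) and 1.08 (SE 0.16, adjusted p = 1.33e-05). At 24 h MXD1 rose with S + D (0.49, SE 0.11, adjusted p = 0.00212), a call that held in 6 of 8 fits with 1 library left out, and gave 0.34 with Sal (adjusted p = 0.058; 0.000715 in the numbered libraries). With Das the log2 fold changes were -0.24 at 24 h and 0.25 at 72 h (adjusted p = 0.14 and 0.228), and at 72 h replicates 1 and 2 held 69.5 and 64.0 CPM against 37.5 and 46.7 CPM in replicate 3 and the unnumbered library.

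MXD3, the antagonist usually found in cycling cells, went the other way. At 72 h the controls held 22.4, 24.9, 29.0 and 31.5 CPM. Sal left 3.92, 3.09, 2.02 and 5.77 CPM, and S + D left 5.28, 5.44, 4.59 and 8.64 CPM. All treated libraries were far below the controls, with a 7.32-fold fall for Sal (-2.87, SE 0.40, adjusted p = 7.51e-06) and a 4.55-fold fall for S + D (-2.18, SE 0.38, adjusted p = 8.38e-05). With Das the replicates disagreed, at 9.11 and 10.4 CPM in replicates 1 and 2 and 33.0 and 29.8 CPM in replicate 3 and the unnumbered library. The log2 fold change with Das was -0.39 (SE 0.36, adjusted p = 0.43). At 24 h MXD3 fell with S + D (-1.43, SE 0.25, adjusted p = 0.000255), and the values of -0.78 with Sal and -0.80 with Das had adjusted p-values of 0.0468 and 0.0287. Every treated library at 24 h lay below the controls of 47.1 to 48.9 CPM. In the numbered libraries alone both drugs passed, with adjusted p-values of 4.97e-07 and 1.19e-09. That fit leaves out the unnumbered libraries, which held 25.3 CPM with Sal and 41.0 CPM with Das. Replicates 1 to 3 with Das held 21.9 to 24.1 CPM, and the p-value with Das reflects their spread alone.

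MXD3 (chr5:176728462-176739758, minus strand, GRCh37) shares 43.7% of its exon bases with neighbours, namely RAB24 on the same strand and PRELID1 on the other, so that a part of its counts is uncertain. The counts of both neighbours had positive log2 fold changes with Sal and S + D at 72 h. With Sal at 72 h, the log2 fold change of RAB24 was 0.88 (adjusted p = 0.037) and PRELID1 rose by 0.60 (adjusted p = 0.00089).

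MXI1 (chr10:111967363-112047123, plus strand, GRCh37), also named MXD2, overlapped its controls at 24 h in all treatments, with log2 fold changes of 0.10, 0.15 and 0.42. At 72 h the controls held 66.2, 65.7, 56.8 and 47.5 CPM, and S + D gave 41.7, 46.2, 42.6 and 43.2 CPM. The libraries did not overlap, and the fall of 0.46 (SE 0.13, adjusted p = 0.00594) was the smallest among the antagonists called with S + D. It held in 2 of 8 fits with 1 library left out, where the adjusted p reached 0.0465. Sal and Das gave -0.20 and -0.26 at 72 h, with adjusted p-values of 0.203 and 0.147. In the numbered libraries alone, MXI1 fell with Das at 72 h, by 0.43 (adjusted p = 0.00593).

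MLX was called in 1 of the 6 comparisons with a control, S + D at 72 h, where it went from 57.9, 58.0, 55.0 and 51.5 CPM to 48.0, 41.6, 39.9 and 35.3 CPM (-0.45, SE 0.11, adjusted p = 0.00112). This call held in 6 of 8 fits with 1 library left out, and not without the filter on low counts. The other 5 values lay between -0.25 and -0.05. In the numbered libraries alone, MLX also fell with S + D (-0.27, adjusted p = 0.000298) and with Das (-0.20, adjusted p = 0.00482) at 24 h. MLX (chr17:40719090-40725257, plus strand, GRCh37) shares 18.2% of its exon bases with PSMC3IP on the other strand. PSMC3IP fell by 1.46 with S + D at 72 h (adjusted p = 3.2e-05), and the part of shared reads in the value of MLX was not tested.

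**Figure D2:**
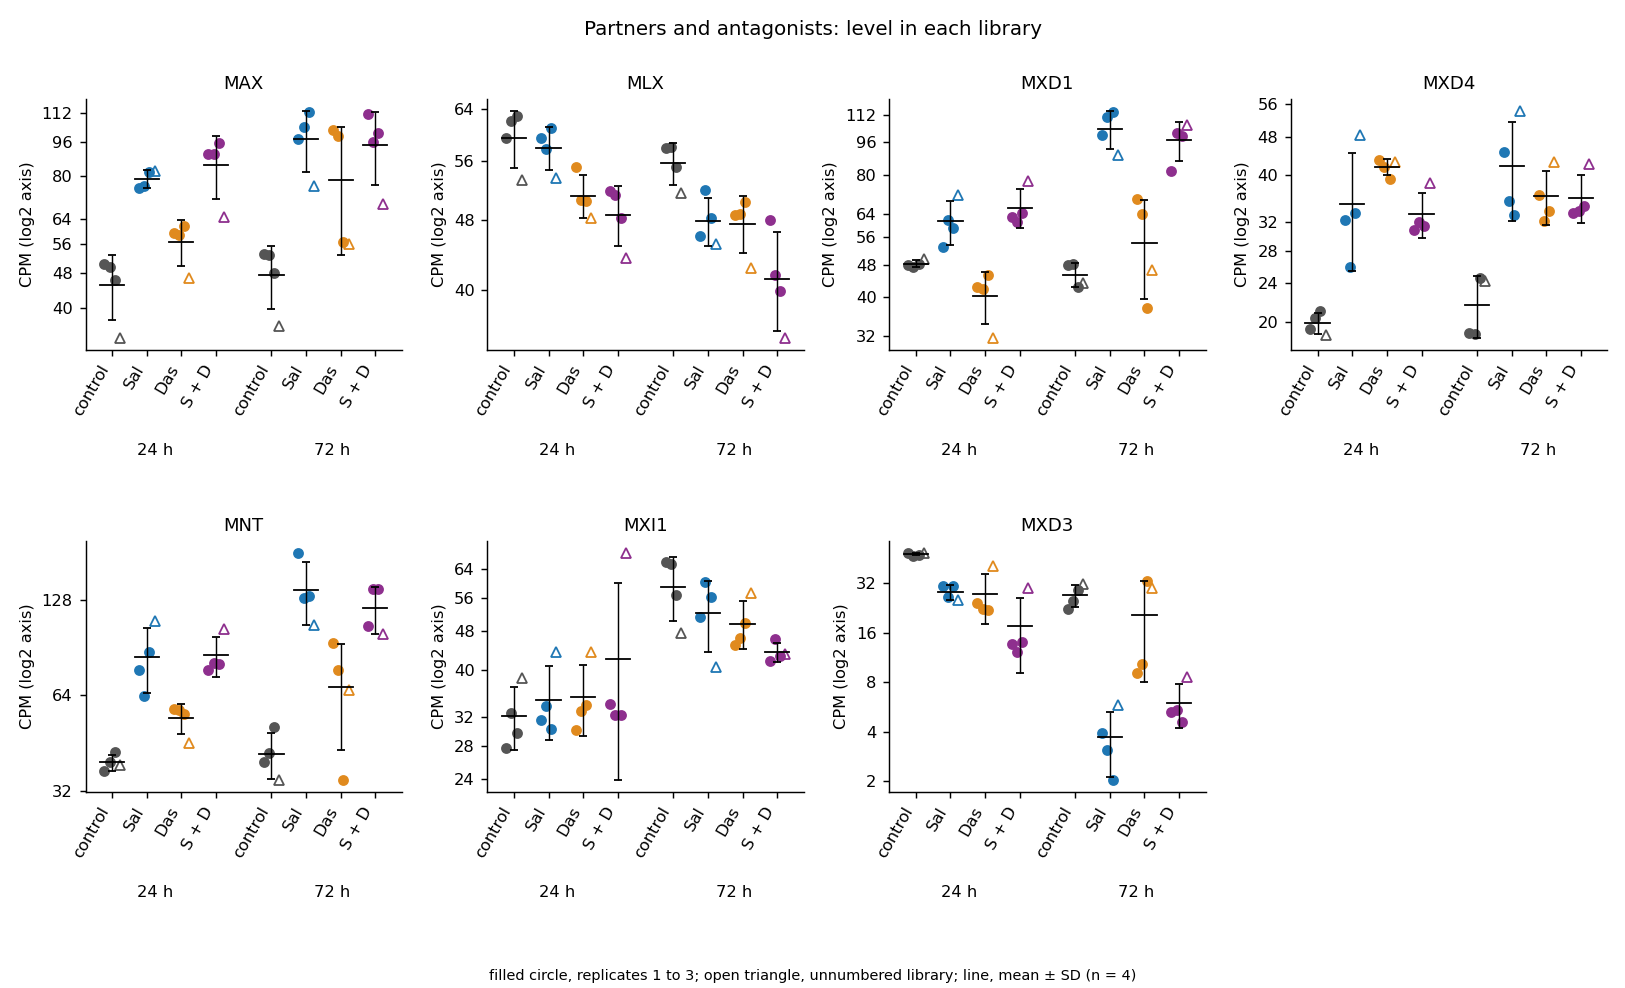
Level of MAX, MLX and the 5 antagonists in the 32 libraries, in CPM on log2 axes that differ between panels, with the same symbols as for the MYC genes (bars, mean and SD of 4 libraries). MNT, MXD1, MXD4 and MAX sit higher with Sal and S + D than in the controls, and MXD3 at 72 h falls from between 22.4 and 31.5 CPM to between 2.02 and 5.77 CPM with Sal.

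Counted over the whole network at 24 h, Sal changed 4 of the 10 members, with MAX, MXD4 and MNT higher and MYC lower. Of all 16357 genes tested, 4.55% were called higher and 2.23% lower with Sal. Das changed 1 member, MXD4, which was higher (6.99% of all genes were higher and 6.88% lower). Without the unnumbered Das library the count was 3, and it was 6 in the numbered libraries alone and 4 with a block for the replicate number. The shares of all genes belong to the fit of all 16 libraries without a block. Those of the alternative fits are not given, so the larger counts are not read as a result about the members. With this block at 24 h, MXD3 also passed with Sal (lower). MAX and MNT (higher) and MXD3 (lower) passed with Das, and MXI1 (higher) and MLX (lower) with S + D. The rise of MXI1 was 0.37 (adjusted p = 0.00977), and 0.15 in the numbered libraries (adjusted p = 0.0727). Its unnumbered library with S + D held 69.2 CPM, against 32.3 to 34.0 CPM in replicates 1 to 3. S + D changed 7 members, 4 higher and 3 lower (17.1% and 16.5% of all genes). At 24 h no member also passed an absolute log2 fold change of 1.5, which 0.721% of all genes did after Sal, 2.49% after Das and 6.06% after S + D.

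At 72 h, Sal changed 8 of the members, with 5 higher (26.3% of all 16682 genes) and 3 lower (26.8%). Das changed 4 members, with MYCL and MXD4 higher (10.5%) and MYC and MYCN lower (9.36%). S + D changed all 10, with 5 higher (27.0% of all genes) and 5 lower (27.9%). An absolute log2 fold change above 1.5 was passed as well by 5 members with Sal (18.7% of all genes), 1 with Das (5.02%) and 5 with S + D (20.2%). The 5 genes with S + D were MYC, MYCN, MYCL, MXD3 and MNT, and these 5 passed with Sal too, while it was MYCN with Das. These comparisons share their control libraries.

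**Figure D3:**
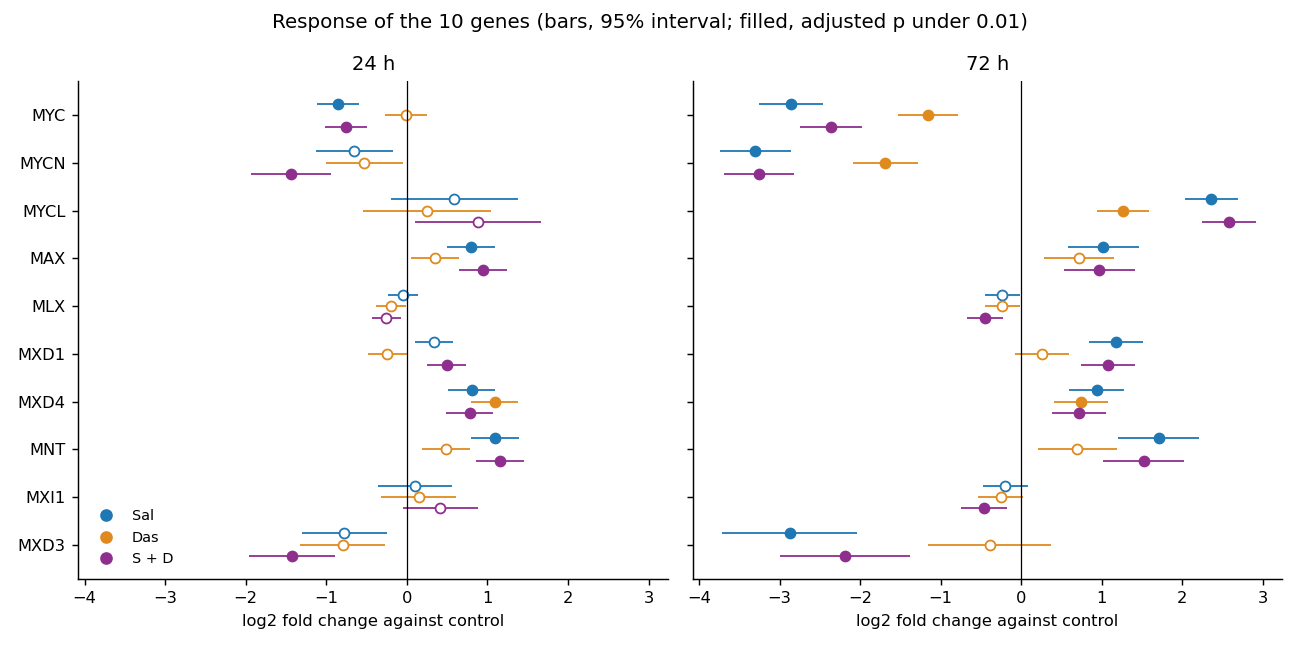
Log2 fold change of each member against the control of its time point, at 24 h and 72 h, for Sal, Das and S + D. Bars are 95% intervals of the edgeR fit, and filled points have an adjusted p under 0.01. At 72 h MYC, MYCN and MXD3 lie on the left with Sal (-2.86, -3.30 and -2.87), and MYCL, MAX, MXD1, MXD4 and MNT on the right.

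The responses grew with time for some members. This was tested as the difference between the 72 h and the 24 h response. With Sal, 5 members differed (21.9% of all 17227 genes did), namely MYC by -2.00 (SE 0.22), MYCN by -2.64 (SE 0.30), MXD3 by -2.09 (SE 0.48), MYCL by 1.78 (SE 0.40) and MXD1 by 0.84 (SE 0.20) on the log2 scale. With S + D, 3 differed (16.3% of all genes), and these were MYC (-1.56, SE 0.22), MYCN (-1.77, SE 0.30) and MYCL (1.75, SE 0.40). With Das, MYC alone differed (-1.12, SE 0.22, adjusted p = 0.00787), against 0.226% of all genes. The adjusted p for MYC with Das ran from 0.000112 to 0.0278 when single libraries were left out, and it passed in 5 of 16 such fits. For MXI1 the response to S + D changed sign, from 0.42 at 24 h to -0.46 at 72 h. The difference was -0.83 (adjusted p = 0.0193), and it passed with the replicate block (adjusted p = 0.00678). In the numbered libraries it passed too (-0.67, adjusted p = 0.000115). With 1 library left out it passed in 3 of 16 fits, with values from -0.95 to -0.50 and adjusted p-values up to 0.0538. In the numbered libraries, 4 members differed with Das, namely MYC, MYCN, MYCL and MXI1. The 0.226% does not belong to that fit. Its share of all genes is not given, so this count is not read as a result about the members. For MAX and MXD4 no difference of the responses was called with any treatment, and the intervals were -0.31 to 0.76 for MAX and -0.31 to 0.58 for MXD4 with Sal.

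To compare the MYC genes with their antagonists, the CPM per kb of MYC, MYCN and MYCL and that of the 5 antagonists were each summed in every library. The log2 of the ratio of both sums is called the balance here, and no test was run on it, since its members were chosen. In the 24 h control the balance was -0.36 ± 0.06, so that the antagonists together exceeded the MYC genes 1.29-fold. In the 72 h control it was -0.12 ± 0.18, or 1.09-fold. Such ratios between genes rest on the exon lengths used as divisors, and the annotation of the counting is not given. Ratios this close to 1 could change side with other lengths.

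The balance at 24 h was lower, -1.41 ± 0.42 with Sal and -1.36 ± 0.39 with S + D, without overlap with the controls, and it was -0.41 ± 0.16 with Das. The unnumbered libraries were the lowest, at -2.03 with Sal and -1.94 with S + D, while the numbered ones lay between -1.23 and -1.14 in both groups. The balance at 72 h was -2.96 ± 0.02 with Sal, -2.44 ± 0.22 with S + D and -1.41 ± 0.50 with Das. The antagonists then exceeded the MYC genes 7.78-fold with Sal, 5.42-fold with S + D and 2.67-fold with Das. The 4 Das libraries were spread from -1.85 to -0.71, with replicate 3 nearest to the controls.

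Both sides of the balance contributed at 72 h with Sal and S + D, the MYC genes by the larger fold. With Sal, the sum of the MYC genes went from 28.6 ± 4.4 to 6.14 ± 0.46 CPM per kb and that of the antagonists from 30.8 ± 1.3 to 47.8 ± 4.2. With S + D the sums were 7.94 ± 0.60 and 43.0 ± 3.4 CPM per kb. With Das they were 13.2 ± 3.8 and 34.4 ± 3.2 CPM per kb, so that mainly the MYC genes moved. The makeup of the antagonists shifted too. In the 72 h control MXD3 held 18.5% of their sum, MNT 15.5%, MXD1 23.2% and MXI1 32.4%. With Sal at 72 h MXD3 held 1.7%, MNT 32.8%, MXD1 34.1% and MXI1 18.4%. The share of MXD3 also differed between the untreated controls, since it was 33.2% at 24 h, where MNT held 14.8%.

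**Figure D4:**
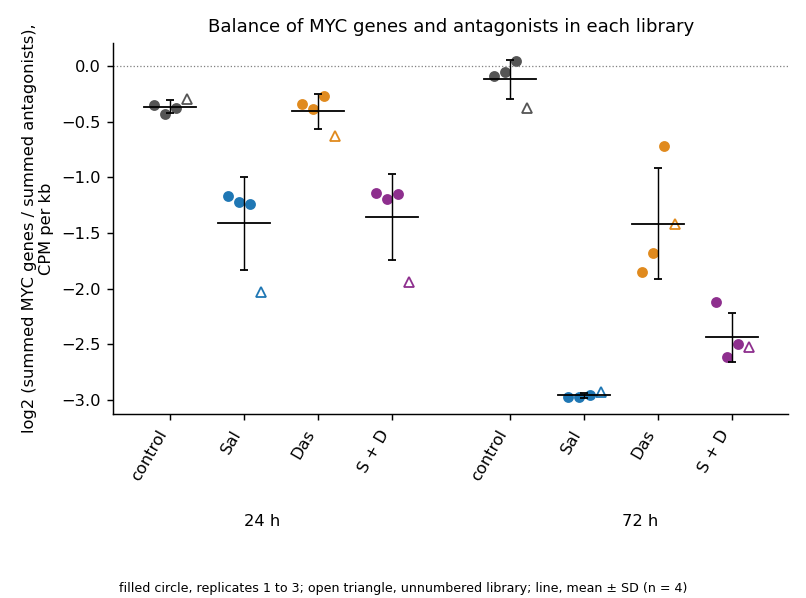
Balance of the MYC genes and the antagonists in each library, as log2 of the ratio of their summed CPM per kb, by treatment and time (lines and bars, mean and SD of 4 libraries). Sal at 72 h sits at -2.98 to -2.93, the 72 h controls at -0.37 to 0.04, and the Das libraries at 72 h spread from -1.85 to -0.71.

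S + D was also compared with each drug alone. Against Sal, 0 members were called at 24 h and 0 at 72 h by edgeR, where 12.9% and 3.01% of all genes were. At an unadjusted p under 0.05 the counts were 3 and 1, and DESeq2 called 1 member at 24 h, MYCN. For MYCN at 24 h, S + D minus Sal was -0.79 (SE 0.24, adjusted p = 0.0241), and in the numbered libraries it was -1.14 (adjusted p = 1.29e-05), along with MXD3, MAX and MLX, 4 members in all. With the replicate block, MXD3 alone was called. The 12.9% and 3.01% belong to the edgeR fit of all 16 libraries at an adjusted p under 0.01. Shares of all genes for the other counts are not given, so these are not read as a result about the members. At 72 h the intervals of the difference between S + D and Sal were -0.41 to 0.50 for MYCN, -0.08 to 0.52 for MYCL, -0.67 to 0.30 for MNT and -0.42 to 0.24 for MXD1, all on the log2 scale. These intervals leave room for differences of up to that size.

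Against Das, S + D differed in 4 members at 24 h (8.49% of all genes; MYCN passed too with the replicate block) and 6 at 72 h (32.1%). At 24 h MYC was lower (-0.74, SE 0.12, adjusted p = 0.000853), and MAX (0.60), MXD1 (0.73) and MNT (0.67) were higher. The call for MAX was kept in 1 of 8 fits with a library left out, and that for MNT in 6 of 8. The numbered libraries gave -0.74 for MYC, 0.60 for MAX, 0.52 for MXD1 and 0.46 for MNT. Without the unnumbered Das library 2 members were called, and in the numbered libraries 7, with MYCN, MXD3 and MXD4 lower as well. The 8.49% does not belong to these fits. Their shares of all genes are not given, so these counts are not read as a result about the members. At 72 h MYC (-1.21, SE 0.18), MYCN (-1.57, SE 0.20) and MXD3 (-1.79, SE 0.38) were lower, and MYCL (1.31, SE 0.15), MXD1 (0.83, SE 0.16) and MNT (0.82, SE 0.23) higher than with Das. The MNT call at 72 h (adjusted p = 0.00815) held in 3 of 8 fits with a library left out and was 0.0134 in the numbered libraries.

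At 72 h the combination moved 4 members less than the sum of both single responses. An interaction term tested the difference from the sum of the log2 fold changes, and it is 0 for a response equal to that sum. For MYC the sum was -4.02 and S + D gave -2.36, a difference of 1.65 (SE 0.25, adjusted p = 0.00046). For MYCN the sum was -4.99 and the difference 1.73 (SE 0.29, adjusted p = 0.000875). For MYCL the sum was 3.63 and the difference -1.05 (SE 0.21, adjusted p = 0.00318). For each of these genes, S + D was not called different from Sal alone. MXD4 had a sum of 1.67 and a difference of -0.96 (SE 0.22, adjusted p = 0.00787), and this call held in 8 of 16 fits with 1 library left out. Without replicate 2 of the 72 h control, 2 members remained called. MAX had a difference of -0.77 (adjusted p = 0.0746), which passed with the replicate block (adjusted p = 0.00625). Of all genes at 72 h, 7.52% differed from the sum.

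At 24 h no member differed from the sum with edgeR, and 0.0306% of all genes did. At an unadjusted p under 0.05 there were 3 such members, and DESeq2 called 1, MXD4. The shares of all genes for these counts are not given. For MXD4 at 24 h the sum was 1.90 and S + D gave 0.78, a difference of -1.12 (SE 0.19, adjusted p = 0.0214). It passed the threshold with the replicate block and in the numbered libraries (-1.02, adjusted p = 1.33e-05). The combination left MXD4 at 33.3 ± 3.5 CPM, against 41.7 ± 1.6 CPM with Das alone. In edgeR this difference of -0.31 (SE 0.14, adjusted p = 0.138) was not called, while it passed in the numbered libraries (-0.41, adjusted p = 0.000371).

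**Figure D5:**
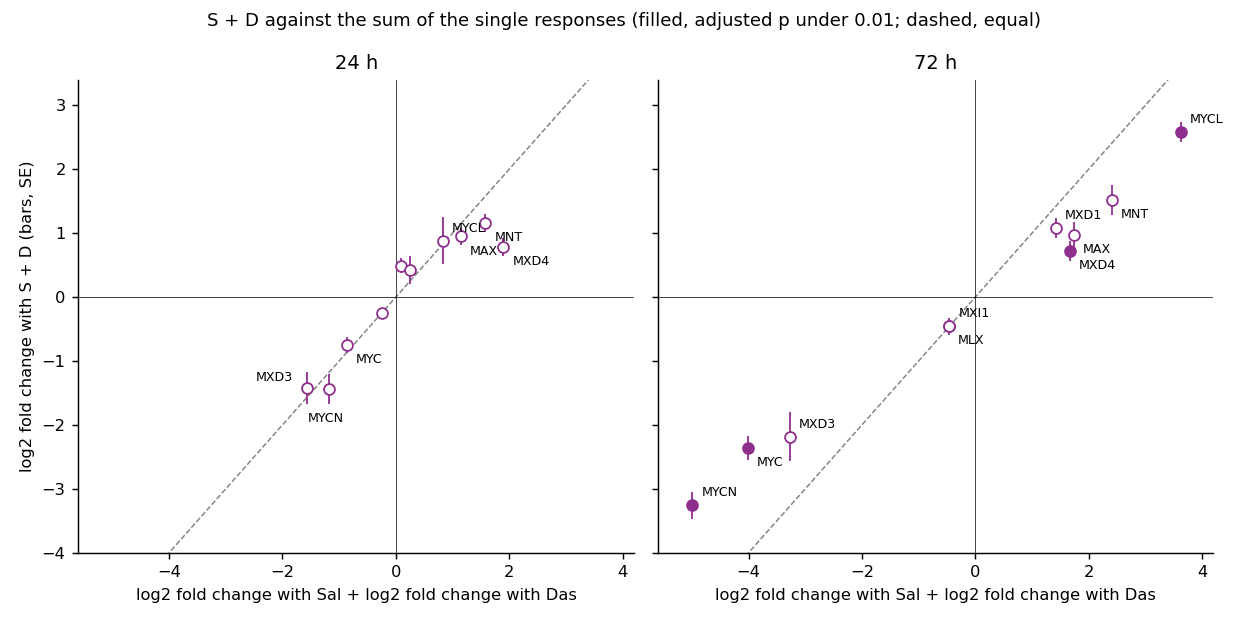
Log2 fold change of each member with S + D (vertical axis, bars are SE) against the sum of its log2 fold changes with Sal and Das (horizontal axis), at 24 h and 72 h. The dashed line marks equality and filled points have an adjusted p under 0.01 for the difference. At 72 h MYC lies at a sum of -4.02 and an S + D value of -2.36.

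The other genes of the pathway were read from fixed lists, beside the median log2 fold change of all genes tested, which lay between -0.02 and 0.04 in the 6 comparisons with a control. The counts of list genes stand against the shares of all genes called in the same comparison. At 24 h, Sal raised 4.55% of all genes and lowered 2.23%, Das raised 6.99% and lowered 6.88%, and S + D raised 17.1% and lowered 16.5%. At 72 h, Sal raised 26.3% and lowered 26.8%, Das raised 10.5% and lowered 9.36%, and S + D raised 27.0% and lowered 27.9%.

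Among 22 genes that MYC is known to activate, 5 fell and 2 rose with Sal at 24 h, 7 fell and 1 rose with Das, and 12 fell and 2 rose with S + D. The counts at 72 h were 10 lower and 3 higher with Sal, 7 lower and 0 higher with Das, and 8 lower and 3 higher with S + D. The medians over the list at 72 h were -0.39, -0.36 and -0.33. The shares of the list that fell exceeded those of all genes in the 6 comparisons. The shares that rose lay below those of all genes except with Sal at 24 h. With Das at 24 h, MYC gave -0.01, MYCN -0.53 (adjusted p = 0.106) and MXD4 1.09. Whether the list genes changed through any member was not tested.

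BOP1, a ribosome assembly factor, had the largest fall of the list with S + D at 72 h, from 4.84 ± 0.40 to 0.876 ± 0.12 CPM (-2.47, SE 0.29, adjusted p = 1.15e-06). SRM, the spermidine synthase gene, had the largest rise, from 45.3 ± 4.1 to 68.5 ± 5.7 CPM (0.58, SE 0.15, adjusted p = 0.00282). Of the 18 genes of this list with a RefSeq window, 8 held the E-box, SRM among them. Of 6 genes that MYC is known to repress, 3 rose and 1 fell with S + D at 72 h, against 27.0% higher and 27.9% lower among all genes. CDKN1A, the cell cycle inhibitor p21, rose from 42.6 ± 6.8 to 109 ± 19 CPM (1.34, SE 0.23, adjusted p = 5.61e-05), while NDRG2, a stress-response gene, fell from 19.6 ± 1.4 to 3.43 ± 0.30 CPM (-2.53, SE 0.22, adjusted p = 6.42e-08). With Sal at 72 h 2 of the 6 rose and 1 fell, against 26.3% and 26.8% of all genes, and with Das 0 rose and 1 fell. With so few genes, 1 call moves these shares widely. At 24 h, 0 rose and 0 fell with Sal, 0 rose and 1 fell with Das, and 1 rose and 1 fell with S + D. None of the 4 repressed genes with a window held the motif.

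Of 20 cofactors and turnover factors of the MYC proteins, 3 rose and 4 fell with S + D at 72 h, 2 rose and 5 fell with Sal, and 1 rose and 2 fell with Das. At 72 h these shares lay below those of all genes, except for the falls with Das, which lay close to the 9.36% of all genes. At 24 h the counts were 2 higher and 7 lower with S + D, 1 and 4 with Sal and 0 and 2 with Das, where all genes gave 16.5%, 2.23% and 6.88% lower. USP36, a nucleolar deubiquitinase of MYC, rose from 87.4 ± 10.2 to 297 ± 47 CPM with S + D at 72 h (1.75, SE 0.23, adjusted p = 3.84e-06), and CIP2A, which protects phosphorylated MYC from the phosphatase PP2A, fell from 41.5 ± 4.1 to 3.75 ± 1.0 CPM (-3.48, SE 0.33, adjusted p = 1.2e-07). With Das at 24 h, CIP2A fell from 62.6 ± 4.2 to 29.7 ± 2.3 CPM (-1.06, SE 0.14, adjusted p = 4.82e-05).

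Of 13 corepressor genes, whose products the MXD proteins and MNT recruit, 6 fell and 1 rose with S + D at 72 h (median -0.38), 5 fell and 0 rose with Sal (median -0.22), and 2 fell and 0 rose with Das (median -0.17). At 24 h, 5 fell and 1 rose with S + D, 3 fell and 0 rose with Das, and 0 fell and 0 rose with Sal. The shares of all genes that fell were 27.9%, 26.8% and 9.36% at 72 h with S + D, Sal and Das, and 16.5%, 6.88% and 2.23% at 24 h with S + D, Das and Sal. The histone-binding gene RBBP4 had the largest fall, from 342 ± 20 to 177 ± 12 CPM with S + D at 72 h (-0.97, SE 0.12, adjusted p = 2.01e-06), and the scaffold gene SIN3B rose from 96.6 ± 9.2 to 167 ± 23 CPM (0.77, SE 0.14, adjusted p = 8.61e-05).

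In the parallel arm around MLX, 3 of the 4 genes tested rose with S + D at 72 h and 0 fell. With Sal and with Das at 72 h 2 rose each and 0 fell, and at 24 h 0 rose with Sal, 2 with S + D and 1 with Das. Of all genes, 27.0%, 26.3% and 10.5% rose at 72 h with S + D, Sal and Das, and 17.1%, 4.55% and 6.99% at 24 h with S + D, Sal and Das. MLXIPL, the glucose-responsive factor ChREBP, went from 1.71 ± 0.53 to 5.99 ± 0.78 CPM with S + D at 72 h (1.79, SE 0.29, adjusted p = 4.09e-05) and from 1.40 ± 0.17 to 4.93 ± 0.94 CPM with Das at 24 h (1.83, SE 0.16, adjusted p = 8.08e-07). ARRDC4, an arrestin-like target of MLXIP and MLXIPL, rose by 1.45 with S + D at 72 h (SE 0.18, adjusted p = 1.81e-06). MLXIP, the sensor MondoA, rose from 65.0 ± 9.1 to 98.1 ± 18.0 CPM (0.58, SE 0.14, adjusted p = 0.0019), while MGA, a large MAX partner, gave 0.01. TXNIP was not analysed here.

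Across the 8 group means, the genes whose log2 level ran most like that of MYC were MTX2 (Pearson r = 0.996), TOMM34 (0.995), SIM2 (0.994), MKKS (0.993) and CARM1 (0.992), out of 10105 genes with a mean of at least 10 CPM. Among the members above that level, MXD3 came closest (0.942), and MXD1 (-0.953), MNT (-0.935) and MAX (-0.879) ran opposite to MYC. The share of the 10105 genes with an r of this size is not given. The values of the members are therefore not read as particular to them. These 8 means share the same libraries for all genes, and the values describe likeness without a test. Pearson r does not measure the size of a change. The group means ran from 39.0 to 53.0 CPM for MTX2, 17.4 to 60.3 for TOMM34, 4.91 to 19.0 for SIM2, 45.6 to 64.9 for MKKS and 15.5 to 101 for CARM1. For MYC they ran from 20.8 to 149 CPM.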

How the data were processed

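RNA-seq of MDA-MB-468 cells was analysed from the raw counts that the authors deposited, as whole numbers of reads per Ensembl gene and library, without normalization. Per the labels and methods, libraries were made with the TruSeq kit and sequenced as short single-end reads. The submitters' processing notes name bcl2fastq 2.19, STAR 2.5.2, Cufflinks 2.1.1, DESeq2 and GRCh37. The counting program, its annotation and its use of strand are not given in the sources used here, so reads of overlapping genes could not be told apart. Symbols matched 46537 of 48804 identifiers. Groups came from the labels, and 0 columns were left unmapped.

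Counts were fitted with edgeR 4.0.16 in R 4.3.3 (TMM, filterByExpr with a minimum count of 10, quasi-likelihood test, Benjamini-Hochberg over all genes tested), where 1 model held the 16 libraries of a time point, and another all 32 where times were compared. A gene was called at an adjusted p under 0.01, with an absolute log2 fold change above 1.5 as a second cutoff, as in the study. Depth limits the precision of the low genes MYCN and MYCL most. CPM used the TMM factors of all 32 libraries. CPM per kb used the exon union of a reference annotation, which need not be that of the counting.

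Members, lists and tests were chosen with earlier results of these data known. Named genes were the 10 members, the gene of each list with the largest rise and fall among those called with S + D at 72 h, TXNIP, ARRDC4 and MLXIP, and the 5 genes most like MYC. The procedure was tested on simulated data. Same-numbered libraries deviated together at 24 h (r from 0.3 to 0.65) when all libraries were used, but not among the numbered libraries (median r from -0.19 to -0.01), so the number was kept out of the model and blocked calls are given where they differ. The alternatives were RLE size factors, no filter, DESeq2 1.42.0, a replicate block, a term for the unnumbered libraries, numbered libraries only, other sets of groups, other cutoffs and each library left out. Figures were drawn with matplotlib 3.10.9.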

Additional observations from a re-analysis of the deposited data

Results flagged for a closer look

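A library stood apart from the other 3 of its group, by Dixon's criterion, in 11 of the 80 groups of 4 libraries formed by 10 members and 8 conditions. Chance flags about 1 in 20 groups where these are independent. The 80 groups are not, because all members were read in the same libraries and the unnumbered libraries shifted alike. In all 11 the library was the unnumbered one. At 24 h with S + D these were MYCL at 6.03 CPM (others 1.66 to 1.77), MXI1 at 69.2 CPM (others 32.3 to 34.0), MXD3 at 30.0 CPM (others 12.2 to 14.0), MNT at 104 CPM (others 77.3 to 81.3), MXD4 at 38.5 CPM (others 30.9 to 32.1) and MAX at 64.4 CPM, which was lower than the others at 90.0 to 95.1. At 24 h with Das they were MYCL at 2.64 CPM (others 1.5 to 1.55), MXD3 at 41.0 CPM (others 21.9 to 24.1) and MNT at 45.3 CPM, below the others at 56.0 to 58.0. The remaining values were MYCN in the 24 h control at 3.41 CPM (others 4.89 to 5.05) and MXD4 with S + D at 72 h at 42.2 CPM (others 33.5 to 34.5). The cause was not tested.

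The response at 72 h differed from that at 24 h, by the interaction of treatment and time in edgeR, in 9 cases. With Sal the differences on the log2 scale were -2.00 for MYC, -2.64 for MYCN, -2.09 for MXD3, 1.78 for MYCL and 0.84 for MXD1. With S + D they were -1.56 for MYC, -1.77 for MYCN and 1.75 for MYCL. With Das the difference was -1.12 for MYC.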

How the results depend on the processing

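No log2 fold change of a member that was called turned its direction under any alternative run. Of 2760 values of single members, 1615 with a library left out and 1011 under other settings stayed on their side of the threshold, while 50 and 5 lost and 15 and 64 gained a call. With the second cutoff on the fold change, the members called were 0 for Sal, Das and S + D at 24 h, 0 for S + D against Das at 24 h, the controls over time and the change of the Das response, 5 for Sal and for S + D at 72 h, 1 for Das at 72 h, and 2 each for S + D against Das and against the sum at 72 h. At an adjusted p under 0.05 they were 3 for Das at 24 h, 1 for S + D against Sal and 1 for S + D against the sum at 24 h, and 2 and 5 for the change of the Das and S + D responses.

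With the replicate block, the pairing by number, Das at 24 h had 4 calls, S + D against Sal at 24 h 1 and S + D against the sum at 24 h 1, and no other count moved by over 1.5 times. A term for the unnumbered libraries gave 4, 3 and 1 for the same comparisons and 5 for the change of the S + D response. The numbered libraries alone gave 7 for Sal, 6 for Das, 4 for S + D against Sal, 7 for S + D against Das and 1 for the sum, all at 24 h, and 4 for the change of the Das response. DESeq2 gave 2, 1 and 1 for Das, S + D against Sal and the sum at 24 h, and a fit of only the groups compared gave 2 for Das at 24 h. The shares of all genes called in these alternative fits are not given.

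With each library left out in turn, the counts at 24 h ran from 4 to 4 for Sal, 1 to 3 for Das, 6 to 8 for S + D, 0 to 1 for S + D against Sal, 2 to 4 for S + D against Das and 0 to 1 for the sum. At 72 h they ran from 8 to 8 for Sal, 4 to 6 for Das, 8 to 10 for S + D, 0 to 0 for S + D against Sal, 5 to 6 for S + D against Das and 2 to 5 for the sum. They were 1 to 2 for the controls over time and 5 to 5, 0 to 1 and 3 to 4 for the change of the Sal, Das and S + D responses.

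The change of the balance against the control was -1.05 for Sal, -0.04 for Das and -0.99 for S + D at 24 h, and -2.84, -1.30 and -2.32 at 72 h. Taken as means of log2 values, in which each gene weighs the same, it was -0.64 for Sal and -0.23 for Das at 24 h, and -1.39, -0.69 and -1.14 for Sal, Das and S + D at 72 h. MYC alone against the antagonists gave -3.46 and -2.81 for Sal and S + D at 72 h, and CPM without length gave -3.05 for Sal. With single libraries left out, it ran from -1.13 to -0.84 for Sal, -0.09 to 0.03 for Das and -1.07 to -0.80 for S + D at 24 h, and from -2.93 to -2.79, -1.53 to -1.15 and -2.43 to -2.26 at 72 h. MYCN and MYCL, with as few as 29 and 41 counts in a library, are limited most by depth.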
